A study of Homo sapiens with 14 samples.

Results

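The 9 genes described here encode cytokines of the interleukin 1 (IL1) and interleukin 6 (IL6) families and the receptors that read them. They are IL1A, IL1B, IL33, IL1RN and IL1R1 from the first family and IL6, IL11, LIF and IL6ST from the second. They were taken by symbol from a fixed list of 9 among the 54628 gene symbols counted in each library. That list was chosen with earlier results of these data known. RNA was counted in 14 libraries of IMR90 cells, a line of normal human lung fibroblasts with a limited lifespan, of which the labels name the isolates I79 and I83 at passage 5 without saying which library came from which. The groups were untreated cells (WT), untreated cells with an siRNA against HMGB2 (siHMGB2), cells brought to senescence with 10 µM inflachromene for up to 6 days (ICM), and cells given the same treatment together with an siRNA against SRRM2, BANF1 or CTCF (siSRRM2, siBANF1, siCTCF). Inflachromene is a compound known to bind HMGB1 and HMGB2, proteins of chromatin. No sample title names a control siRNA, so an effect of giving an siRNA cannot be told apart from that of losing its target. The day on which each treated library was collected was not given in the sources used here, and nothing in them says that replicates came from separate cultures, so the p-values measure only the spread between these libraries, which may be technical.

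ICM has 4 libraries and every other group has 2. The labels of ICM 3, ICM 4 and both siCTCF libraries have another form than those of the other 10 libraries, and their cell line field numbers the line differently (IMR91 to IMR94) while their titles say IMR90. These 4 were treated as a second set, so that the ICM libraries were divided into ICM 1-2 and ICM 3-4, which gave 7 groups of 2 libraries. The series asks how senescence and the loss of HMGB2, SRRM2 or BANF1 change expression and splicing. Here 7 comparisons were made: ICM 1-2 with WT, ICM 3-4 with WT, ICM 3-4 with ICM 1-2, siHMGB2 with WT, both siSRRM2 and siBANF1 with ICM 1-2, and, in the second set, siCTCF with ICM 3-4.

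IL1A and IL1B are the activating ligands of IL1R1, which signals through MYD88 and IRAK kinases to NF-kB. IL1RN encodes a natural antagonist that occupies IL1R1 without activating it, and IL33 is a nuclear alarmin with a receptor of its own, IL1RL1. IL6, IL11 and LIF bind different partner receptors but all signal through gp130, the product of IL6ST, to JAK kinases and STAT3. In fibroblasts IL1 signalling is a known inducer of IL6, and IL1A, IL1B and IL6 belong to the secretory programme that many senescent fibroblasts display.

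Stretches before the RefSeq starts of IL6, IL1B and IL11 are shown, chosen as follows. Of the ligands, IL6 had the largest fold between untreated and ICM 3-4 cells, and IL1B the largest fold between replicates. IL11 had a fold between untreated and ICM 3-4 cells that missed the threshold in the main edgeR fit, where those of the other ligands passed. The sequences come from RefSeq (GRCh38.p14), run 5′ to 3′ on the strand of the gene, and end before the first GENCODE v29 exon that reaches into the window. Capitals mark matches to the motifs searched. IL6, on the plus strand at chr7:22726950-22727146, holds a match to the C/EBP motif and one to the NF-kB motif, and lies in the first intron of a longer GENCODE transcript that starts farther upstream. IL1B, on the minus strand at chr2:112836904-112837029, holds a STAT match, and IL11, on the minus strand at chr19:55370464-55370713, an AP-1 match.
IL6: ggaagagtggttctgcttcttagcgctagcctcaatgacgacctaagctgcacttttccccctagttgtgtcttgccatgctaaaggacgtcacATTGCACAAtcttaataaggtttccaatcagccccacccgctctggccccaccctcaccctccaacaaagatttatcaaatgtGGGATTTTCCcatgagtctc
IL1B: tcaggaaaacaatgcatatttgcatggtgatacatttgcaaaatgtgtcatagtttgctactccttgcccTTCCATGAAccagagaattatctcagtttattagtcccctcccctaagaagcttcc
IL11: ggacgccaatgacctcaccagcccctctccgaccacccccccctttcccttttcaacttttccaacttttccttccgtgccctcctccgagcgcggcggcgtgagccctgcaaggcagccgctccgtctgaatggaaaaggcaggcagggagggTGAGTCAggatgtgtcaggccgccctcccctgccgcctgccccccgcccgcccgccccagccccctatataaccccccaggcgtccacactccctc

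The motifs were searched on both strands in the 250 bases before each RefSeq start, except the TATA box (TATAAA), which was read on the gene's strand. A RefSeq window was found for 8 of the 9 genes, and LIF was not in the table. The NF-kB motif was present in 5.21% of 35116 windows, AP-1 (TGANTCA) in 6.57%, C/EBP (TTNNGNAAT) in 9.85%, STAT (TTCNNNGAA) in 6.57% and TATAAA in 6.8%. In IL6 the C/EBP match, ATTGCACAA, lay 156 to 148 bases and the NF-kB match, GGGATTTTCC, 73 to 64 bases before the start. The AP-1 match in IL11, TGAGTCA, lay 96 to 90 bases before its start. IL1B also had a C/EBP match, TTGTGAAAT, 91 to 83 bases before its start, past the end of the printed stretch. Not all matches in the other windows are listed. The 2 starts listed for IL1A shared the AP-1 letters TGACTCA and the C/EBP letters ATTACAAAA. No match to the 5 motifs was found in the windows of IL33 and IL6ST. A match of letters is no measurement of binding, and no binding was measured in these libraries.

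On GRCh38 (GENCODE v29), IL1A (112773915 to 112784590), IL1B (112829751 to 112836903), IL1RN (113107214 to 113134016) and IL1R1 (102064544 to 102179874) all lie on chromosome 2. IL33 lies on chromosome 9 (6215786 to 6257983), IL6 on chromosome 7 (22725884 to 22732002) and IL11 on chromosome 19 (55364389 to 55370463). LIF lies on chromosome 22 (30240447 to 30246851) and IL6ST on chromosome 5 (55935095 to 55994993). Exons of IL1R1, IL6, LIF and IL6ST overlap an annotated gene on the other strand, and the strand setting of the counting was not given in the sources used here, so reads of such partners cannot be told apart from theirs if strand was not used. The antisense gene counted as IL6-AS1 reached at most 8.79 CPM, in WT 1. IL6 had 14.02 times (siSRRM2 1) to 595.7 times (siBANF1 1) its counts in the 10 libraries of the first set, and 9 to 16 counts against 1 to 3 in the second set. CPM is a gene's count for every 1000000 counts that genes received in that library.

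Each untreated library held 33561766 to 41168932 gene counts, each ICM-treated library of the first set 39435430 to 58257456, and each of the second set 22336161 to 26779027. ICM 1 and siBANF1 1 stood apart from the rest: 16.35% and 18.44% of their reads fell in no annotated feature, against 2.69% to 8.87% in the other 12. Small RNA genes made up 3.19% to 6.06% of the ICM-treated libraries of the first set, against 0.00515% to 0.00812% of every other library. Of the targeted genes, HMGB2 had 3.18 and 3.52 CPM in siHMGB2 against 27.7 and 28.0 in WT, and CTCF 71.5 and 23.0 CPM in siCTCF against 94.9 and 91.9 in ICM 3-4. SRRM2 had 238 and 112 CPM in ICM 1-2, 76.0 and 76.4 where the label reads siSRRM2, and 59.0 and 17.0 where it reads siBANF1. BANF1 had 13.5 and 32.7 CPM in ICM 1-2 and 17.0 and 36.7 where the label reads siBANF1. The names under which those 4 count tables were deposited also give the other of the 2 knockdowns. The labels were followed, and no direction below should be read as an effect of losing SRRM2 or BANF1 in particular. All 10 fibroblast markers examined were above 1 CPM in each library, and the lymphocyte markers CD3E, CD3D and MS4A1 were at 0 in all 14.

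Untreated fibroblasts expressed 7 of the 9 genes at a substantial level, and the ligands of the IL6 family were among the most abundant. Per kilobase of exon, WT had 244 ± 82.6 CPM of IL11, 231 ± 89.3 of IL6, 184 ± 59.0 of LIF, 137 ± 54.4 of IL1B, 105 ± 1.18 of IL1R1 and 73.8 ± 13.4 of IL6ST (mean ± SD, n = 2, as throughout). IL1A was lower, at 7.65 ± 2.79 CPM per kilobase. IL33, at 0.176 ± 0.0624 CPM per kilobase, and IL1RN, with 1 count in both WT libraries together, were close to the limit of detection. All 9 levels were scaled to exon length here. The values that follow are CPM without that scaling and compare libraries for 1 gene at a time.

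**Figure D1:**
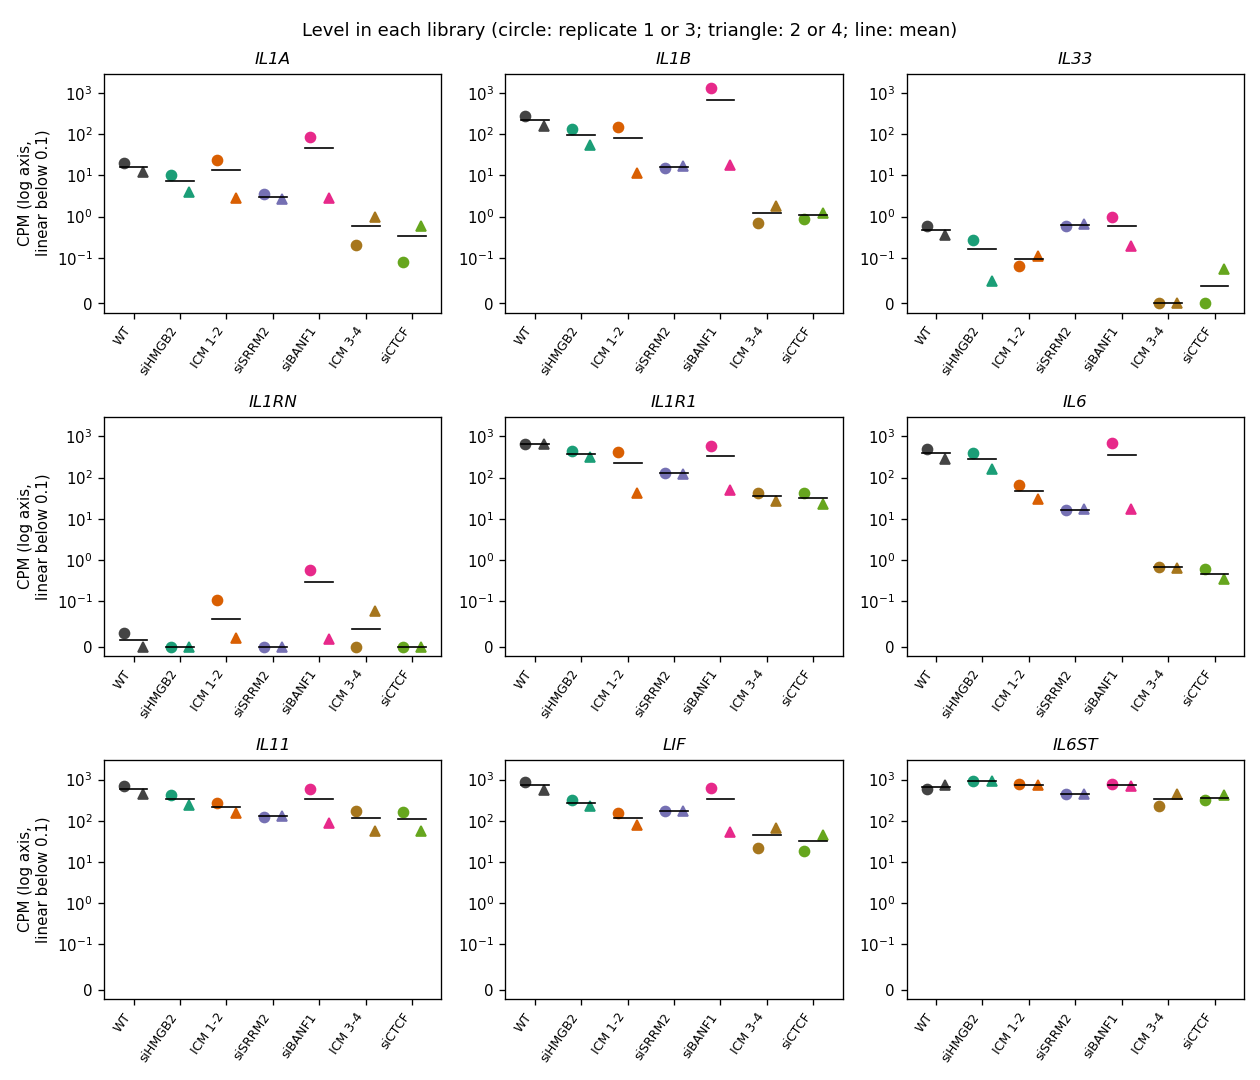
Level of each of the 9 genes in each of the 14 libraries, in CPM on a log axis that turns linear below 0.1, with 1 panel per gene, the 7 groups along the horizontal axis, circles for replicate 1 or 3, triangles for replicate 2 or 4 and a line at the mean. IL1A, IL1B and IL6 are at or under 1.77 CPM in all 4 libraries of ICM 3-4 and siCTCF, and the siBANF1 circles sit far above the triangles for every ligand but not for IL6ST.

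IL1B, the secreted IL1 ligand that caspase 1 matures, was abundant in untreated cells and nearly absent in ICM 3-4 and siCTCF. It was at 287 and 161 CPM in WT, 133 and 55.1 in siHMGB2, 152 and 11.3 in ICM 1-2, 15.3 and 16.6 in siSRRM2, 1366 and 18.3 in siBANF1, 0.711 and 1.77 in ICM 3-4, and 0.895 and 1.23 CPM in siCTCF. The highest library was siBANF1 1, and the lowest 4 were those of the second set. IL1A, the IL1 ligand that is active without maturation and stays largely in the cell, was at a lower level, and for it ICM 1 lay above both WT libraries. It was at 20.4 and 12.1 CPM in WT, 10.4 and 3.86 in siHMGB2, 24.0 and 2.86 in ICM 1-2, 3.53 and 2.62 in siSRRM2, 87.8 and 2.83 in siBANF1, 0.209 and 0.985 in ICM 3-4, and 0.0895 and 0.598 CPM in siCTCF. In the order of the means, the libraries of neighbouring groups overlapped from siBANF1 through WT and ICM 1-2 to siHMGB2 for IL1A. For IL1B they overlapped between siBANF1 and WT and from siHMGB2 through ICM 1-2 to siSRRM2, and for both genes between ICM 3-4 and siCTCF.

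The proportion of the IL1 ligands to each other was not constant. Per kilobase of exon, IL1B exceeded IL1A 16.66 to 18.58 times in the 4 WT and siHMGB2 libraries and 20.26 times in siBANF1 1. In ICM 1-2, siSRRM2 and siBANF1 2 the ratio was 5.167 to 8.398. In the second set it was 2.344 to 13.02, on 5 to 25 IL1A counts per library in ICM 3-4 and 2 and 16 in siCTCF. No test was made of these ratios.

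IL33 was barely detected. Its 2 libraries held together 33 counts in WT, 12 in siHMGB2, 10 in ICM 1-2, 56 in siSRRM2, 49 in siBANF1, 0 in ICM 3-4 and 2 in siCTCF, and the highest library was siBANF1 1 at 0.964 CPM. A count of 0 in ICM 3-4 allows up to 0.0609 CPM over both libraries (3 counts, which covers counting error only). IL1RN, the antagonist, had 22 counts in siBANF1 1, 5 in ICM 1 and at most 2 in each of the other 12 libraries. Its highest level was 0.558 CPM, and it was too low to be tested.

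IL1R1, the signalling receptor of both IL1 ligands, was the most evenly expressed of the genes in WT and differed widely between ICM 1 and ICM 2. It was at 671 and 661 CPM in WT, 436 and 311 in siHMGB2, 419 and 41.0 in ICM 1-2, 131 and 125 in siSRRM2, 601 and 48.5 in siBANF1, 43.1 and 27.2 in ICM 3-4, and 41.9 and 23.3 CPM in siCTCF. The WT libraries lay above every other library. ICM 2 was within the range of ICM 3-4, and ICM 1 was not.

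IL6 had the widest range of the IL6-family ligands. It was at 505 and 288 CPM in WT, 389 and 165 in siHMGB2, 64.7 and 30.8 in ICM 1-2, 16.4 and 16.9 in siSRRM2, 679.8 and 17.3 in siBANF1, 0.669 and 0.631 in ICM 3-4, and 0.582 and 0.336 CPM in siCTCF. The second set held only 9 to 16 IL6 counts per library. With the means in order, WT, siBANF1 and siHMGB2 overlapped, and ICM 1-2, siSRRM2, ICM 3-4 and siCTCF followed without overlap.

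IL11, a ligand of the same family known for its action on fibroblasts, kept a level above 50 CPM in every library. It was at 717 and 440.0 CPM in WT, 426 and 244 in siHMGB2, 270.0 and 157 in ICM 1-2, 126 and 128 in siSRRM2, 597 and 86.8 in siBANF1, 174 and 57.0 in ICM 3-4, and 162 and 56.1 CPM in siCTCF. LIF, leukaemia inhibitory factor, was at 897 and 566 CPM in WT, 315 and 223 in siHMGB2, 157 and 79.3 in ICM 1-2, 175 and 173 in siSRRM2, 637 and 53.9 in siBANF1, 21.8 and 66.6 in ICM 3-4, and 18.1 and 46.0 CPM in siCTCF. Unlike IL6, neither gene was near 0 in the second set: IL11 in ICM 3 and siCTCF 1 was as high as in ICM 2, and LIF was at 66.6 CPM in ICM 4 against 79.3 in ICM 2.

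IL6ST, the shared gp130 receptor chain, varied least. It was at 584 and 757 CPM in WT, 939 and 946 in siHMGB2, 763.5 and 726 in ICM 1-2, 458 and 439 in siSRRM2, 801 and 709.9 in siBANF1, 227 and 442 in ICM 3-4, and 314 and 413 CPM in siCTCF. The siHMGB2 libraries were the highest and separate from the next group, and the ICM 3-4 and siCTCF libraries overlapped at the low end.

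The 2 replicates lay close together in some groups and far apart in others, and IL6ST had the smallest of these differences in siBANF1 and ICM 1-2. In siSRRM2 the 2 libraries differed by 1.01-fold (LIF) to 1.35-fold (IL1A) over the 8 genes. In WT they differed by at most 1.78-fold (IL1B), and in siHMGB2 by 1.01-fold (IL6ST) to 2.69-fold (IL1A) among genes with more than 3 counts in both libraries. In siBANF1, library 1 exceeded library 2 by 74.8-fold for IL1B, 39.3-fold for IL6, 31.0-fold for IL1A, 12.4-fold for IL1R1, 11.8-fold for LIF, 6.88-fold for IL11 and 5.10-fold for IL33, but by 1.13-fold for IL6ST. In ICM 1-2, library 1 exceeded library 2 by 13.5-fold for IL1B, 10.2-fold for IL1R1 and 8.40-fold for IL1A, and by 2.10-fold for IL6, 1.99-fold for LIF, 1.72-fold for IL11 and 1.05-fold for IL6ST, while IL33, on 4 and 6 counts, was 1.35-fold higher in library 2. In ICM 3-4 the difference was 1.06-fold for IL6, on 16 counts in each library, and 1.59-fold for IL1R1 and 3.04-fold for IL11, both higher in ICM 3. IL1A (4.71-fold, on 25 and 5 counts), LIF (3.06-fold), IL1B (2.49-fold) and IL6ST (1.95-fold) were higher in ICM 4. In siCTCF the genes with more than 3 counts in both libraries differed by 1.32-fold (IL6ST) to 2.88-fold (IL11).

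Other values moved with the replicates of siBANF1 and ICM 1-2. The high library of each pair is the one with the larger share of reads outside annotated features given above. Mitochondrial mRNA made up 0.454% of the counts of ICM 1 and 0.0677% of ICM 2, and 0.754% of siBANF1 1 and 0.0685% of siBANF1 2. TEK, an endothelial receptor gene, was at 240.9 CPM in ICM 1 against 68.1 in ICM 2, and at 119.8 in siBANF1 1 against 64.5 in siBANF1 2. It made up nearly all of the summed level of the 5 endothelial markers, which was 243.5 and 125.1 CPM in ICM 1 and siBANF1 1, where CDH5 was at 0 and PECAM1 at 0.041 and 0.101 CPM. The macrophage marker CD14 was at 12.95 CPM in ICM 1 and 4.24 in siBANF1 1, against 0.70 and 0.532 in their replicates. Of the other 7 macrophage and monocyte markers, ITGAM and TYROBP were at 0 in both libraries, ADGRE1 was at 0 in ICM 1, and LYZ, CSF1R and FCER1G were at 0.041 to 0.38 CPM. Of the other leukocyte markers, PTPRC was at 0 in both, and LAPTM5 was at 0.082 CPM in ICM 1 and, its highest, 0.406 in siBANF1 1. The summed level of the 8 macrophage and monocyte markers, most of it CD68, was 40.4 to 49.4 CPM in WT and siHMGB2 and 57.0 to 105 CPM in the 10 ICM-treated libraries. The part of these values in the replicate difference was not tested.

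**Figure D2:**
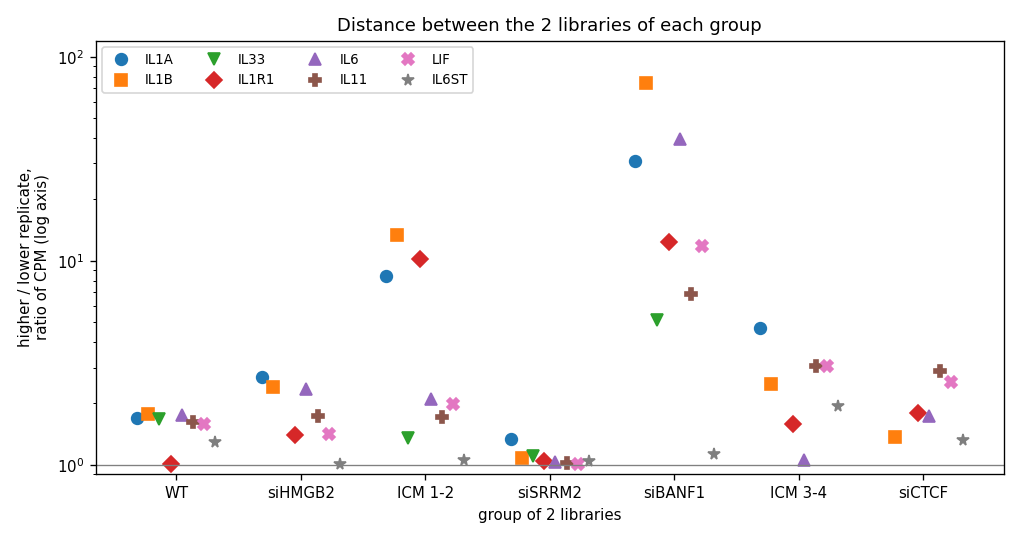
Ratio of the higher to the lower replicate of each group (CPM, log axis) for the 8 genes other than IL1RN, in the 7 groups; points are left out where the lower library had 3 or fewer counts. The siSRRM2 points lie between 1.01 and 1.35, while the siBANF1 points reach 74.8 for IL1B with IL6ST at 1.13.

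Senescence induction was compared with untreated cells in both sets. In ICM 3-4 the IL1 ligands, IL1R1, IL6, LIF and, by less, IL6ST fell, and IL6 changed most, from a mean of 396 to 0.65 CPM. Of the 8 genes that could be tested, 7 passed the threshold (Benjamini-Hochberg adjusted p under 0.05 by edgeR's quasi-likelihood test over 19126 genes), all 7 lower, where 30.3% of all genes passed and 16.0% passed in the lower direction. IL6 fell by 9.49 on the log2 scale (SE 1.59, adjusted p = 0.00285 by edgeR) and IL1B fell by 7.75 (SE 1.90, adjusted p = 0.0139). IL1A fell by 5.01 (SE 1.59, adjusted p = 0.0367), IL1R1 fell by 4.47 (SE 1.22, adjusted p = 0.0211), and LIF fell by 4.32 (SE 1.03, adjusted p = 0.0126). IL6ST fell by 1.26 (SE 0.31, adjusted p = 0.0142), from a mean of 670 to 334 CPM. IL33 also passed (adjusted p = 0.0203 by edgeR), and with 0 counts in ICM 3-4 it was at least 7.74-fold lower. IL11 had a log2 fold change of -2.54 (SE 0.90) and an adjusted p of 0.0536 by edgeR, and it passed with DESeq2 (adjusted p = 0.0113). The libraries of the 2 groups did not overlap for any of these 8 genes. The share of all genes without overlap was not counted in any comparison, so overlap is given only as a description.

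Over all genes 2732 rose and 3065 fell in ICM 3-4, or 3448 and 2449 with scaling by total counts, which moves the median of all genes from -0.015 to 0.176. The same 7 genes passed with either scaling, all lower. The median log2 fold change of the 8 genes in this comparison was -4.74, or -4.39 with IL33 at its bound. Fitted on the compared libraries alone, all 8 passed, where 47.0% of all genes did. With 1 library left out the number that passed was 1 without ICM 3 (IL6) and 3 without ICM 4, without WT 1 or without WT 2, and IL6 was among them each time. Since the second set lacks untreated cells, set and treatment cannot be told apart here, and the summed fibroblast markers moved in the same direction, from 21300 to 28230 CPM in WT to 2323 to 4751 CPM in ICM 3-4. Mitochondrial mRNA made up 3.54% and 3.11% of the counts in WT and 0.241% and 0.252% in ICM 3-4, and the summed endothelial markers were at 74.6 to 89.1 CPM in WT and 2.96 to 16.2 in ICM 3-4. The part of these values in the change was not tested. In bulk RNA fewer cells of a type and less RNA per cell cannot be told apart.

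In ICM 1-2 none of the 8 genes passed against WT by edgeR, where 13.5% of all genes did. IL6, at a mean of 47.7 CPM against 396 in WT, had a log2 fold change of -3.16 (SE 1.17, adjusted p = 0.0958), and LIF, at 118 against 732 CPM, one of -2.74 (SE 0.96, adjusted p = 0.0821). These 2 genes were the ones with an unadjusted p under 0.05, and both passed with DESeq2. IL33 was at -2.40 (SE 1.08), IL1R1 at -1.61 (SE 1.08), IL11 at -1.55 (SE 0.87) and IL1B at -1.52 (SE 1.42). IL1A, at -0.35 (SE 1.29), and IL6ST, at 0.02 (SE 0.31), were closest to 0. The WT and ICM 1-2 libraries did not overlap for IL6, LIF, IL11, IL1B, IL1R1 and IL33, and they did for IL1A and IL6ST. Here too the share of all genes without overlap was not counted. The median of the 8 was -1.58, and of all genes 0.102. Small RNA genes made up 6.06% and 3.19% of the counts in ICM 1-2 and 0.00799% and 0.00811% in WT. Mitochondrial mRNA made up 0.454% and 0.0677% in ICM 1-2 and 3.54% and 3.11% in WT. Summed fibroblast markers were at 4373 to 13840 CPM in ICM 1-2 against 21300 to 28230 in WT. The summed endothelial markers, at 68.4 to 243.5 CPM, spanned the WT range of 74.6 to 89.1. The part of these values in the change was not tested.

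The values for IL1R1, IL1B and IL1A in this comparison depended on which ICM library was kept. Without ICM 1, IL1R1 was at -4.23, IL1B at -4.51 and IL1A at -2.72. Without ICM 2 they were at -0.73, -0.62 and 0.50. IL6 and LIF moved less, between -3.89 and -2.68 and between -3.42 and -2.28. On the 4 compared libraries alone no gene of the 8 passed either, where 0.173% of all genes did.

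The sets of ICM libraries, which carry the same treatment label, were compared directly. IL6, IL1B and IL6ST were lower in ICM 3-4, 3 of 8 genes, where 19.5% of all genes passed and 11.0% in the lower direction. IL6 differed by a log2 fold change of -6.33 (SE 1.42, adjusted p = 0.0131 by edgeR), IL1B by -6.22 (SE 1.78, adjusted p = 0.0340), and IL6ST by -1.28 (SE 0.31, adjusted p = 0.0180). IL1A was at -4.66 (adjusted p = 0.0594), IL1R1 at -2.86 (adjusted p = 0.0967), LIF at -1.58 and IL11 at -0.99. IL33, with 0 counts against 10, was at least 1.59-fold lower in ICM 3-4. The median of the 8 was -3.76, or -2.22 with IL33 at its bound, and that of all genes -0.114. Only IL6 passed without ICM 1, none passed without ICM 3, only IL6ST passed without ICM 4, and 5 passed without ICM 2. On these 4 libraries alone IL6 was the one that passed. ICM 1-2 and ICM 3-4 share WT as their control in the comparisons above, so those are not independent of each other. Since the second set has no untreated cells, a different response to treatment cannot be told apart from a difference between the sets of libraries.

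HMGB2 knockdown in untreated cells was set against WT. IL1B was at 287 and 161 CPM in WT and 133 and 55.1 in siHMGB2, LIF at 897 and 566 against 315 and 223, and IL1R1 at 671 and 661 against 436 and 311, with no overlap, while IL6ST was at 584 and 757 against 939 and 946 CPM. The share of all genes without overlap was not counted for this comparison. In the fit to all 14 libraries none of the 8 genes passed by edgeR or by DESeq2. None of them had an unadjusted p under 0.05 with either. That background was 0.0% of genes with edgeR (0 genes, 908 with an unadjusted p under 0.05) and 73 genes with DESeq2. HMGB2, the targeted gene, did not pass in this fit either (log2 fold change -3.00, SE 0.44, adjusted p = 0.201 by edgeR). A gene that did not pass there may therefore still have changed. The log2 fold changes were -1.54 for IL33, -1.39 for LIF (SE 0.92), -1.21 for IL1B (SE 1.41), -1.15 for IL1A, -0.78 for IL1R1 (SE 1.06), -0.74 for IL11, -0.47 for IL6 and 0.55 for IL6ST (SE 0.31).

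The calls in this comparison turn on which libraries share the estimate of spread. On the 4 WT and siHMGB2 libraries alone, 6 of the 8 genes passed, where 10.7% of all genes did. LIF, IL1B, IL1A, IL1R1 and IL11 were lower, with log2 fold changes of -1.38 (SE 0.17), -1.20 (SE 0.21), -1.14 (SE 0.24), -0.77 (SE 0.16) and -0.73 (SE 0.18), and IL6ST was higher at 0.55 (SE 0.15). Their adjusted p-values by edgeR ran from 2.9e-08 for LIF to 0.0108 for IL6ST. IL6, at -0.46 (SE 0.21), and IL33 were the 2 that did not pass. In the single fit without the ICM 1-2 and siBANF1 libraries, the groups whose replicates lay farthest apart, none of the 8 passed.

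Among the knockdowns in ICM-treated cells, none of the 8 genes passed in any comparison by edgeR or DESeq2 in the single fit. Against ICM 1-2, 0.178% of all genes passed in the libraries labelled siSRRM2. IL33 was at a log2 fold change of 2.64 (SE 1.07, adjusted p = 0.398) there, with 56 counts against 10 and no overlap, and IL6ST at -0.74 (SE 0.31, adjusted p = 0.399), at 458 and 439 CPM against 763.5 and 726. These 2 had an unadjusted p under 0.05. IL1B (-2.43), IL1A (-2.19) and IL1R1 (-0.91) took the sign of ICM 1, since without that library they were at 0.56, 0.17 and 1.71. IL6 was at -1.55, IL11 at -0.78 and LIF at 0.53, each without overlap of the libraries. Overlap is again only a description, since its share over all genes was not counted. The median of the 8 was -0.85, and of all genes -0.097.

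In the libraries labelled siBANF1 all 8 fitted values against ICM 1-2 were above 0, and 0.0% of all genes passed (0 genes, 591 with an unadjusted p under 0.05, and 17 genes with DESeq2). IL1B was at 3.13 (SE 1.50), IL6 at 2.95 (SE 1.16), IL33 at 2.61 (SE 1.08), IL1A at 1.80, LIF at 1.62, IL11 at 0.75, IL1R1 at 0.54 and IL6ST at 0.06. IL33 and IL6 had an unadjusted p under 0.05 with edgeR, and IL1B also with DESeq2. Without siBANF1 1 the values for 7 of the 8 turned negative, to -2.28 for IL1B, -1.54 for IL6, -2.35 for IL1A, -2.36 for IL1R1, -1.21 for LIF, -1.37 for IL11 and -0.12 for IL6ST, and IL33 stayed above 0 at 0.90. Without siBANF1 2, IL6 passed at 3.92. In these fits the direction of 7 of the 8 depended on which siBANF1 library was set against both ICM 1-2 libraries. Equally numbered libraries of the 2 groups deviated together (correlation 0.79), though the labels do not say that they were paired. In a fit of the compared libraries with a replicate block all 8 values stayed above 0 (median 0.87). By equal number, IL1B, IL1R1 and IL33 were higher in siBANF1 in both pairs, and IL1A, IL6, IL11, LIF and IL6ST only in the first.

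The siCTCF libraries resembled ICM 3 and ICM 4 in these genes. For IL1R1 the levels were 41.9 and 23.3 CPM in siCTCF against 43.1 and 27.2 in ICM 3-4, for IL11 162 and 56.1 against 174 and 57.0, and for LIF 18.1 and 46.0 against 21.8 and 66.6, with siCTCF 1 close to ICM 3 and siCTCF 2 close to ICM 4. The log2 fold changes were -0.76 for IL1A (SE 1.66), -0.51 for IL6 (SE 1.44), -0.46 for LIF (SE 0.91), -0.21 for IL1B (SE 1.62), -0.11 for IL1R1 (SE 1.06), -0.09 for IL11 (SE 0.85) and 0.13 for IL6ST (SE 0.31). No gene of the 8 had an unadjusted p under 0.05 with edgeR or DESeq2, and over all genes 0.0% passed (0 genes with either tool, 125 with an unadjusted p under 0.05 by edgeR). CTCF, the targeted gene, did not pass by edgeR either (log2 fold change -0.96, SE 0.52). IL33 had 0 and 2 counts, so no fold is given. These standard errors moved with the libraries that share the estimate of spread: in the single fit without the ICM 1-2 and siBANF1 libraries they were 0.63 for IL1B, 0.72 for IL6 and 0.32 for IL1R1, and none of the 8 genes passed there either.

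**Figure D3:**
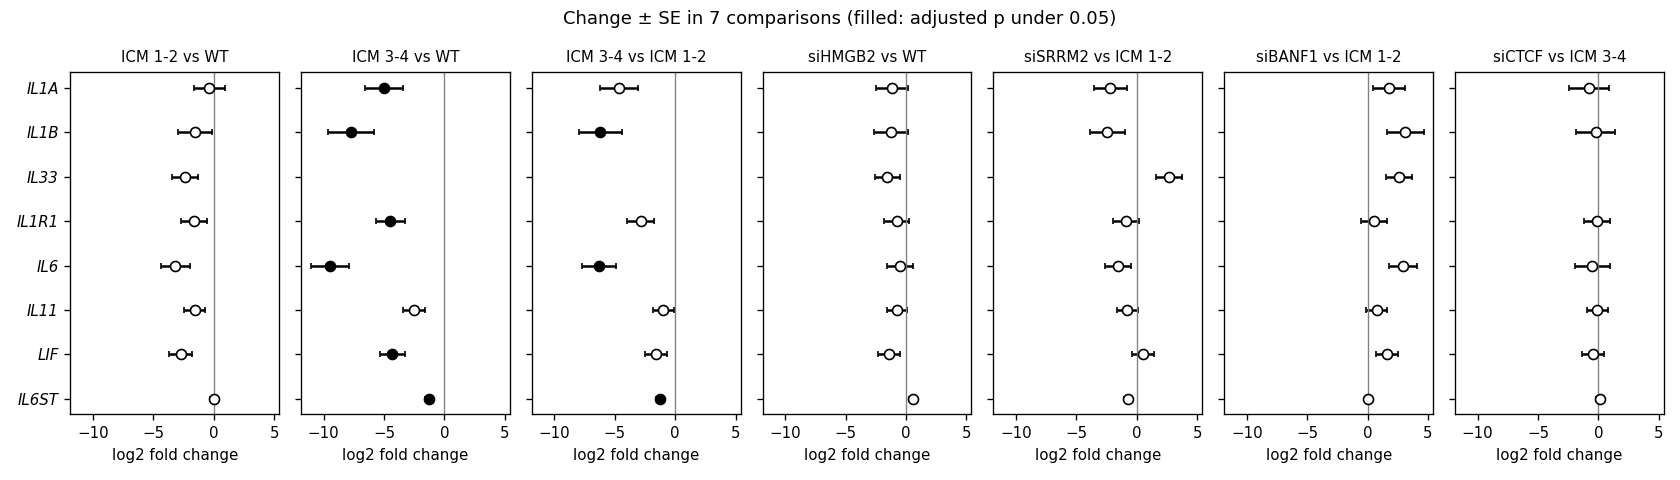
Log2 fold change of the tested genes in the 7 comparisons (points, with bars of 1 SE; filled where the adjusted p by edgeR is under 0.05 and open otherwise), with genes down the vertical axis. IL33 is not drawn in the 3 comparisons with ICM 3-4, where a group has 0 counts. Filled points lie only in the panels of ICM 3-4 against WT and against ICM 1-2, all to the left of 0.

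The genes that act before and after these cytokines were read from 8 lists of 77 genes, of which 62 could be tested. Against WT, 2 rose and 7 fell in ICM 1-2, and 6 rose and 15 fell in ICM 3-4. Their median log2 fold changes were -0.30 and -0.48. Between the sets, 7 were higher and 6 lower in ICM 3-4 than in ICM 1-2. None passed by edgeR in siHMGB2, siSRRM2, siBANF1 or siCTCF, where 2, 6, 6 and 0 of the 62 had an unadjusted p under 0.05. Of all genes, 13.5% passed in ICM 1-2 (1269 higher, 1313 lower) and 30.3% in ICM 3-4 against WT, and 19.5% between the sets. With both directions together, the counts over the lists lay near these shares. In the lower direction alone, 16.0% of all genes passed in ICM 3-4 against WT and 11.0% between the sets. The shares in the knockdowns are those given above.

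Genes that make IL1B active and carry its signal did not all move one way in ICM 3-4. CASP1, the protease that matures IL1B, had 108 ± 8.46 CPM in WT and fell to 10.3 ± 5.80 (a log2 fold change of -3.60 with SE 0.54 and an adjusted p of 0.00173 by edgeR), and PYCARD, the inflammasome adaptor, fell by 3.25. They were the 2 of 6 tested genes of processing and release that passed, where 30.3% of all genes did. Of 13 genes that carry the signal of IL1R1, 4 rose and 2 fell. IRAK1, a kinase recruited to the receptor, rose from 131 ± 7.52 to 470.0 ± 18.2 CPM (log2 fold change 1.60, SE 0.25), and TOLLIP, an adaptor known to restrain IRAK1, rose by 1.00. IRAK3, an inhibitory member of the kinase family, fell by 3.58, from 18.6 ± 3.47 to 1.83 ± 0.249 CPM, and the kinase gene MAP3K7 by 0.72. In ICM 1-2, MYD88, the adaptor of the receptor, fell to 17.4 ± 4.95 CPM from 62.2 ± 0.833 (-1.99 on the log2 scale, SE 0.26, adjusted p = 0.00157 by edgeR), while TRAF6 rose by 0.86. MYD88 was at 77.8 ± 8.46 CPM in ICM 3-4 and differed between the sets by 2.08 (SE 0.26, adjusted p = 0.0013 by edgeR).

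Of the other receptors of the IL1 family, 3 of 9 fell in ICM 3-4 and none rose, where 30.3% of all genes passed. IL1R2, the decoy receptor, fell by 3.48 but was already at 0.609 ± 0.318 CPM in WT, IL18R1 fell by 3.40, from 43.1 ± 11.4 to 4.72 ± 3.56 CPM, and IL1RAP, the accessory chain of IL1R1, was the third. IL1R2 was also the 1 that passed in ICM 1-2, at -3.05. Of the other 7 ligands of the family, IL18 alone could be tested, and no group mean of it was above 0.261 CPM.

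Among the other ligands and partners of the IL6 family, IL12A rose in ICM 1-2 by 2.20, from 1.07 ± 0.16 to 5.49 ± 3.10 CPM. CLCF1 was at 16.2 ± 13.9 CPM in ICM 1-2 and 74.0 ± 3.97 in ICM 3-4, a difference of 2.13 that passed. The 7 tested partner receptors and shedding proteases had 2 members that fell in ICM 3-4, the proteases ADAM10 (by 1.06) and ADAM17 (by 0.64). Of all genes, 30.3% passed in that comparison. The ligand-specific chains IL6R, IL11RA, LIFR and OSMR did not pass in any comparison. In siHMGB2, IL6R was at 8.86 and 8.16 CPM against 23.7 and 30.2 in WT (log2 fold change -1.61, SE 0.25, adjusted p = 0.201 by edgeR), a gene named after its values were seen.

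Of 9 genes that act below gp130, 1 rose and 1 fell in ICM 3-4, and none passed in ICM 1-2. SOCS3, the feedback inhibitor that STAT3 induces, fell to 29.8 ± 15.0 CPM from 199 ± 26.4 (-2.96 on the log2 scale, SE 0.51, adjusted p = 0.00323 by edgeR), and PIAS3, an inhibitor of STAT3, rose by 0.90. STAT3 itself was at 206 ± 22.4 CPM in WT and 174 ± 4.80 in ICM 3-4 (-0.48, SE 0.27). Of 13 regulators of cytokine genes and their mRNAs, 5 fell in ICM 1-2, and 5 fell and 1 rose in ICM 3-4. Over all genes, 13.5% passed in ICM 1-2 and 30.3% in ICM 3-4. CEBPB, a C/EBP factor known to act on the IL6 promoter, fell by 2.73 in ICM 1-2, from 689 ± 135 to 113 ± 31.9 CPM, and HNRNPD, which binds unstable mRNAs, by 2.50. CEBPD fell by 5.96 in ICM 3-4, from 272 ± 16.4 to 5.06 ± 3.43 CPM (adjusted p = 0.00303 by edgeR), ZFP36L2, a destabilizer of mRNAs, fell by 2.39, and ATF3 rose by 2.22. In ICM 1 and ICM 2, CEBPD was at 116 and 18.5 CPM.

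**Figure D4:**
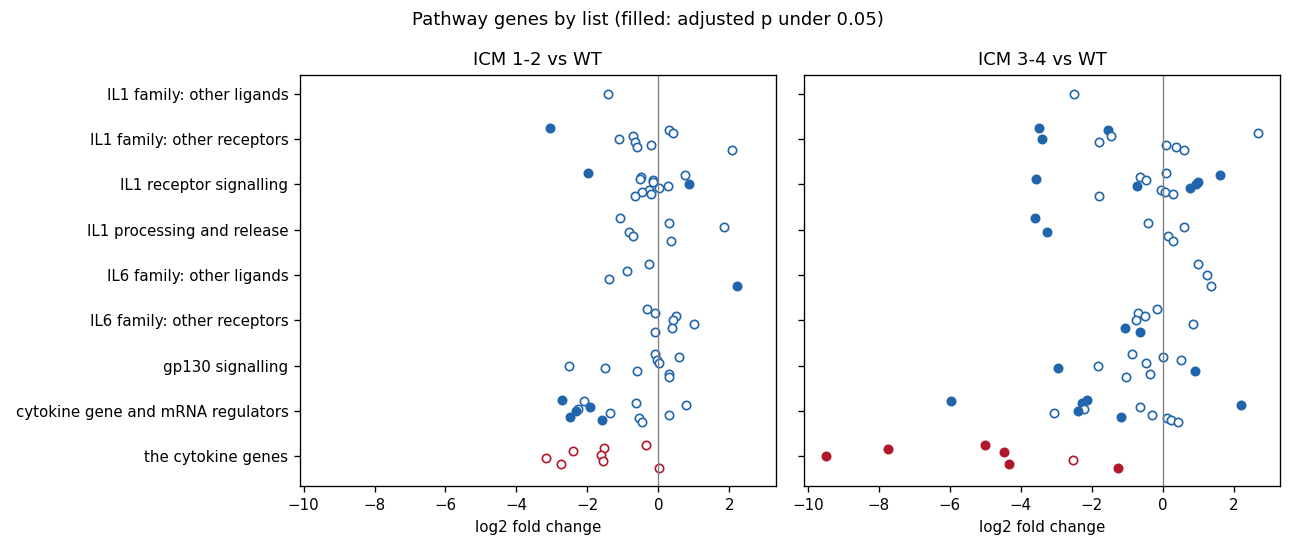
Log2 fold change against WT of the tested genes of the 8 lists (blue) and of the cytokine genes themselves (red), in ICM 1-2 (left) and ICM 3-4 (right), with 1 row per list and filled points where the adjusted p by edgeR is under 0.05; genes with 0 counts in a group (IL33 and EBI3 in ICM 3-4) are not drawn. The list medians lie at -0.30 and -0.48 over all 8 lists, and those of the cytokine genes at -1.58 and -4.74 with IL33 included.

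Genes whose level ran most like that of each cytokine gene were sought among 10382 genes over the 14 libraries, by Pearson's r of log2(CPM + 1). The r values are descriptions, since the libraries fall into 7 groups and share depth and set. IL1B was closest to C3, complement component 3 (r = 0.991), and to TNFAIP3, a feedback inhibitor of NF-kB (r = 0.979). IL6 was closest to CCL2, a monocyte-attracting chemokine (r = 0.988), and to the prostaglandin receptor gene PTGFR (r = 0.985). IL1A was closest to the metal transporter gene SLC11A2 (r = 0.993) and to IL1B (r = 0.974), and IL1R1 to SLC23A2, a vitamin C transporter (r = 0.994), and SEMA4D (r = 0.986). IL11 was closest to AREG, an epidermal growth factor receptor ligand (r = 0.96), and PTGES, which makes prostaglandin E (r = 0.956). LIF was closest to HP1BP3 (r = 0.973) and FAM110B (r = 0.953), and IL6ST to HIVEP1 (r = 0.949) and SASH1 (r = 0.946).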

How the data were processed

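The authors deposited raw read counts for each gene symbol, with 1 table per library. The submitters' processing notes name STAR 2.7.3a, HTSeq 0.12.4, DESeq2 1.36.0 and hg38, without roles. The annotation and the strand setting were not given in the sources used here. Per the labels' protocols, RNA was DNase-treated and sequenced from both ends as TruSeq libraries.

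The 5 lines that name no gene, 12.8% to 41.8% of the reads of a library, were left out. Genes were kept by filterByExpr on the 7 groups (19126 genes), scaled by TMM and tested in edgeR 4.0.16 (R 4.3.3) with the quasi-likelihood F-test in 1 fit over all 14 libraries, with 7 residual degrees of freedom. The p-values were adjusted by Benjamini-Hochberg over all genes, and a gene passed at an adjusted p under 0.05. IL1RN failed the filter. The standard error is that of the log2 fold change. With 2 libraries against 2, an exact permutation test of single values cannot reach 0.05. The fit was also run on simulated data in which all groups shared the same spread for each gene. The groups here differ in spread, so that run does not check the calls reported.

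The alternatives were DESeq2 1.42.0, other scalings, no filter, the compared libraries only, a replicate block and each library left out. Total-count scaling and a fit without the ICM 1-2 and siBANF1 libraries were chosen after the data were seen. The 9 genes and the pathway lists were chosen with earlier results of these data known. Some genes of the lists are not reported here and were left out of their counts and medians. Named list genes are the 2 highest and 2 lowest of those that passed in a list, and the genes most alike are the best 2 by r, with a mean of at least 5 CPM. Other steps used Python 3.11.15 and pandas 2.3.3.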

Additional observations from a re-analysis of the deposited data

Results flagged for a closer look

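In 3 of the genes, ICM 1 stood far above the other 3 ICM libraries. The gap between ICM 1 and the next library, as a share of the range over the 4 libraries, was 0.959 for IL1R1, 0.93 for IL1B and 0.889 for IL1A, above Dixon's critical value for 4 samples, which chance passes in about 1 group in 20 where the 4 samples come from one population. These 4 come from the 2 sets, so that rate does not apply as it stands. IL6 and LIF, with shares of 0.528 and 0.576, did not pass it. For IL11 and IL6ST the wider gap was at the low end, between ICM 4 and the next library for IL11 and between ICM 3 and the next for IL6ST, with shares of 0.469 and 0.4, which did not pass either.

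ICM 3-4 and ICM 1-2 differed in the direct test for IL6 (log2 fold change -6.33), IL1B (-6.22) and IL6ST (-1.28). On the compared libraries alone only IL6 passed. WT cancels from this test and the second set has no untreated cells. A different change from WT therefore cannot be told apart from a difference between the sets of libraries. For IL6ST the mean was 745 CPM in ICM 1-2 and 334 CPM in ICM 3-4.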

How the results depend on the processing

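Beside the counts given above, the number of the 8 genes that passed in ICM 1-2 against WT was 2 with DESeq2, 5 with no filter beyond 1 count and 4 with the replicate block. It ranged from 0 to 1 with 1 library left out. In ICM 3-4 against WT it was 8 with DESeq2, where 7285 of all genes passed, and 8 with no filter, where 6600 of 33733 did. It was also 8 with the replicate block, and fell with 1 library left out, as given above. In ICM 3-4 against ICM 1-2 it was 5 with DESeq2, 7 with no filter, 1 on the compared libraries only, 5 with the replicate block and 0 to 5 with 1 library left out. In siHMGB2 against WT it was 1 with no filter, 6 on the compared libraries and 7 with the replicate block. With no filter it was 3 in siSRRM2 and 4 in siBANF1, which ranged from 0 to 1 with 1 library left out. Over all genes the number that passed in ICM 1-2 against WT was 4010 with DESeq2, 3883 with no filter, 33 on the compared libraries, 1445 with the replicate block and 545 to 3612 with 1 library left out. In ICM 3-4 against WT it was 8993 on the compared libraries, 8872 with the replicate block, 10486 without the ICM 1-2 and siBANF1 groups and 1922 to 2602 with 1 library left out. In ICM 3-4 against ICM 1-2 it was 5454 with DESeq2, 4930 with no filter, 2754 with the replicate block, 239 on the compared libraries and 1206 to 6059 with 1 library left out. In siHMGB2 against WT it was 73 with DESeq2, 94 with no filter, 2055 on the compared libraries, 2293 with the replicate block and 261 without the ICM 1-2 and siBANF1 groups. In siSRRM2 it was 727 with DESeq2, 814 with no filter, 0 on the compared libraries, 103 with the replicate block, 1 with total-count scaling and 1 to 47 with 1 library left out. In siBANF1 it was 17 with DESeq2, 161 with no filter, 1 with the replicate block and 0 to 81 with 1 library left out, and in siCTCF 4 with the replicate block. The causes were not tested.

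Leaving out 1 library turned signs, with these lowest and highest log2 fold changes. In ICM 1-2 against WT, IL1A ranged from -2.72 to 0.50 and IL6ST from -0.15 to 0.21. In siHMGB2, IL6 ranged from -1.20 to 0.0054. In siSRRM2, IL1A ranged from -3.04 to 0.17, IL1B from -3.34 to 0.56 and IL1R1 from -1.79 to 1.71. In siBANF1, IL1A ranged from -2.35 to 4.17, IL1B from -2.28 to 6.12, IL1R1 from -2.36 to 3.16, IL6 from -1.54 to 3.92, IL11 from -1.37 to 1.57, LIF from -1.21 to 2.52 and IL6ST from -0.12 to 0.21. In siCTCF, IL1A ranged from -2.62 to 0.66, IL1B from -0.68 to 0.50, IL1R1 from -0.67 to 0.33, IL11 from -1.13 to 1.02, LIF from -1.20 to 0.46 and IL6ST from -0.23 to 0.60. With 1 library left in a group, the fit assumes that it varies like the other groups. No other alternative turned the sign of a gene.

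The labels do not say that equal replicate numbers mark a shared culture or day. Deviations of equally numbered libraries correlated at -0.07 to 0.13 in the 3 comparisons among WT and the ICM groups, 0.04 in siHMGB2, 0 in siSRRM2, 0.79 in siBANF1 and 0.42 in siCTCF, with ICM 3 and ICM 4 set to numbers 1 and 2. Depth limits IL1RN and IL33. In the second set IL1A, IL1B and IL6 had 2 to 45 counts per library.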
